A study of Mus musculus with 12 samples.

Results

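Peaks of accessible chromatin were examined around 9 genes that control the making of mitochondria, in 12 ATAC-seq libraries of mouse bone marrow-derived macrophages (BMDMs). The genes are Nrf1, Gabpa, Esrra, Ppargc1a, Ppargc1b, Tfam, Tfb1m, Tfb2m and Polrmt, chosen by name and not by a measured value, and they are 9 of 20665 autosomal protein-coding genes. Every peak that overlapped one of these genes or the 20 kb on either side of it was taken. Merged over the libraries, these peaks formed 113 of the 144562 autosomal regions of the data set.

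ATAC-seq uses a transposase that inserts adapters into open DNA, so a peak marks a stretch that was cut more often than its surroundings. The macrophages either had Baf60a (wild type, WT) or lacked it (knockout, KO). Baf60a, encoded by Smarcd1, is a protein of SWI/SNF complexes, which move and eject nucleosomes. The cells were cultured without treatment or for 48 h with oxLDL at 50 µg/ml, an oxidised lipoprotein taken up by macrophages in the artery wall. In the Omni cohort, made by the Omni-ATAC protocol, the 4 groups are untreated WT, untreated KO, WT with oxLDL and KO with oxLDL, with 1 library each. Labels of that cohort name the genotype only as WT or KO and do not give the ApoE status or whether the cells were frozen. In the ApoE KO cohort, made with a Nextera kit from cryopreserved cells, all 8 libraries carry the ApoE knockout and a floxed Baf60a (f/f), and the same 4 groups have 2 libraries each. There, KO means that Lyz2 Cre, a recombinase driven from the lysozyme gene of myeloid cells, was present, and WT that it was absent. Ages are not given. The labels do not say whether replicate libraries are from different animals or cultures. The spread behind each p-value is therefore that between libraries and may be technical.

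NRF1 (nuclear respiratory factor 1, a different protein from the stress factor encoded by Nfe2l1) and GABP, the ETS-family factor whose DNA-binding subunit is encoded by Gabpa, bind promoters of nuclear genes for the respiratory chain. ERRα, encoded by Esrra, is an orphan nuclear receptor that switches on genes of oxidative metabolism, and PGC-1α and PGC-1β, encoded by Ppargc1a and Ppargc1b, are coactivators that these factors recruit. Their targets include the genes of the machinery that works inside the mitochondrion: TFAM packages mitochondrial DNA and opens its promoters, TFB2M is the initiation factor of the mitochondrial RNA polymerase encoded by Polrmt, and TFB1M methylates the small ribosomal RNA. In macrophages, PGC-1β has been linked to the oxidative state of alternative activation.

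Promoter sequence was available from RefSeq (GRCm38.p6, the assembly of mm10) for 8 of the 9 genes, covering 250 bases before to 50 bases after each tabulated start. Ppargc1b had no entry. The stretches below are shown because they lie in the start regions described next and outside every protein-coding gene body of RefSeq. They run 5′ to 3′ on the gene's own strand, and capitals mark matches to the motifs named after them.
Nrf1 upstream: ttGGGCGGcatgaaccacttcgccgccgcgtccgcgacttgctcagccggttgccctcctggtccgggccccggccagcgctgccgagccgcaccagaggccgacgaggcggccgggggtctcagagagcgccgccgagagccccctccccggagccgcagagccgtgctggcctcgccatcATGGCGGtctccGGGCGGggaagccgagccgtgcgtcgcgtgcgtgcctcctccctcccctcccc
Polrmt upstream: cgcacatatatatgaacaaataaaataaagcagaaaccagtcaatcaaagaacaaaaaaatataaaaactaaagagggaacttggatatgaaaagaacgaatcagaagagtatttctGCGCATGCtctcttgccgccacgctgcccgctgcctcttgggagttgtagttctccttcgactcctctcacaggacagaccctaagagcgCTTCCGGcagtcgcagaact
Tfb1m upstream: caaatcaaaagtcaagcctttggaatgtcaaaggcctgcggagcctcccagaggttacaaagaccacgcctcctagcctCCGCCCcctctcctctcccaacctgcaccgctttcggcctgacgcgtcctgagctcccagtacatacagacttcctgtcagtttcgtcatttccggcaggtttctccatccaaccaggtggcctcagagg
Tfb2m upstream: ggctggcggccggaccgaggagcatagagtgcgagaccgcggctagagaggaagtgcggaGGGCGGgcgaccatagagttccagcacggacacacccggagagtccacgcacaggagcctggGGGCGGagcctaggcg
The Nrf1 stretch is chr6:30047738-30047984 (plus strand, bases -250 to -4 from the start). That of Polrmt is chr10:79746605-79746831 (minus strand, -250 to -24). That of Tfb1m is chr17:3557797-3558005 (minus strand, -250 to -42), and that of Tfb2m is chr1:179546306-179546443 (minus strand, -167 to -30).

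A further 30 bases around single matches are shown for the members whose matches fell inside a gene body, because NRF1 and GABP, which read these letters, are products of the genes studied.
Polrmt NRF1 site: gcaggcgGCGCGTGCGCGTGCGCactgcgg
Tfb2m NRF1 core: ctaggtcgttcGCATGCGCcattcgtaatg
Esrra NRF1 core: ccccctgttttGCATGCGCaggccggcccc
Gabpa ETS site: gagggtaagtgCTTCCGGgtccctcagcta
Tfam ETS site: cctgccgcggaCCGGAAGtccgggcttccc
The Polrmt site (chr10:79746565-79746594) holds 2 overlapping matches that cover bases -6 to 3 and 0 to 9 from the start, where the tabulated start is base 0. The Tfb2m core (chr1:179546245-179546274) covers bases 13 to 20, and the Esrra core (chr19:6921824-6921853) bases -34 to -27. The ETS match of Gabpa (chr16:84835020-84835049) covers bases -93 to -87, and that of Tfam (chr10:71238073-71238102) bases -47 to -41.

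Motifs were searched on both strands over the full 300 bases. The NRF1 site, GCGCA and GCGC with 1 base of any kind between them, was found in 1 of the 8 promoters, that of Polrmt. It was found in 6.55% of 20085 tabulated promoters and in 13% of the 7357 whose start region was called in all 12 libraries. A start region lay over the start or within 1 kb of it. The overlapping core GCGCATGC was found in 3 of 8 (Esrra, Tfb2m and Polrmt), against 3.55% and 6.36%. The ETS site CCGGAAG, the letters GABP reads, was found in 3 of 8 (Gabpa, Tfam and Polrmt), against 11.9% and 21.7%. A YY1 site, ATGGCGG, was found in Nrf1 and Gabpa, against 5.29% and 9.2%, and a GC box, GGGCGG, in 5 of 8, against 47.0% and 69.7%. Neither the ERR element AAGGTCA (4.03% and 2.53% of the same promoters) nor the cyclic AMP response element TGACGTCA (2.3% and 3.66%) was found in any of the 8. The window of Nrf1 itself held no match to either NRF1 motif, and that of Ppargc1a held none of the 7 motifs. A match describes letters and does not show that a factor was bound.

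Ppargc1a also had the lowest GC content and CpG ratio of the 8 promoters. Its GC content was 48.7%, and its CpG dinucleotides stood at 0.28 of the number expected from its base composition. The other 7 had GC contents from 52.0% (Polrmt) to 77.0% (Nrf1) and CpG ratios from 0.59 to 1.04. Medians over all promoters were 57.0% and 0.59, and over promoters called in all 12 libraries 62.0% and 0.81.

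Of the 9 genes, 8 had a region over their start (within 1 kb of it) that was called in all 12 libraries, against 9005 of 20665 genes (43.6%). The exception was Ppargc1a, judged at the only start tabulated for it. For Ppargc1b, whose strand is not given in the tables used here, the merged region lay over the upper gene boundary. The peaks did not reach that boundary in every library. In the ApoE KO cohort they ended at -183, -4, -81 and -41 bp from it in WT and at 152, 133, 75 and 50 bp in KO. This was seen after the fact, and the share of all regions with such a pattern is not given here. To compare lists of different length, each region's highest peak score was ranked among the 17343 regions called in all 12 libraries. A percentile of 100 is the highest score in that library. This percentile ranks the significance of a peak and is not summed over its length. The median over the 9005 start regions called in all 12 libraries was 57.4 in the Omni cohort and 62.2 in the ApoE KO cohort.

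**Figure D1:**
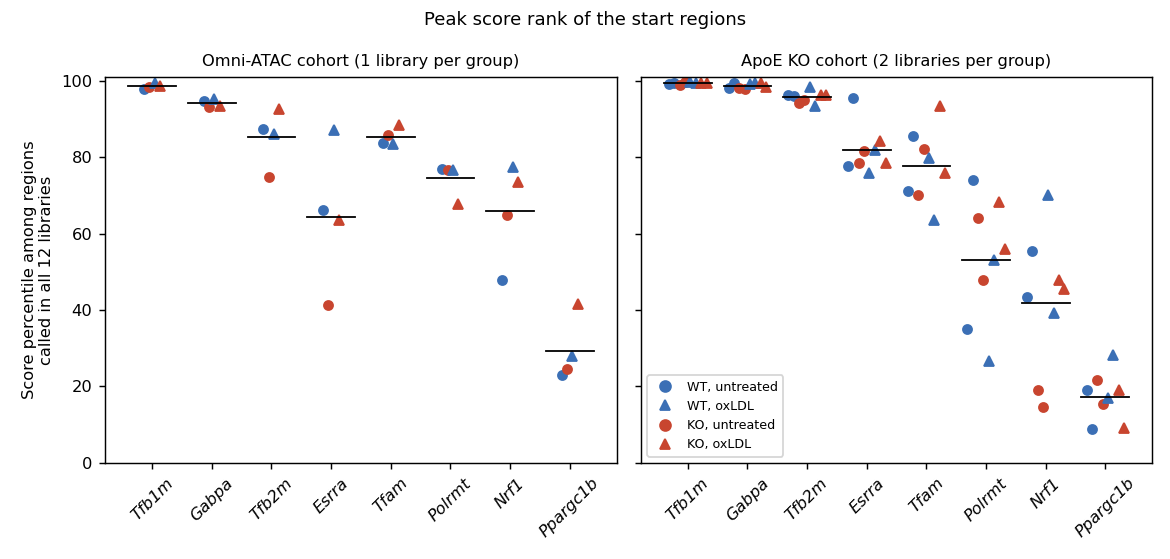
Score percentile (vertical axis, points on a scale of 0 to 100) of the 8 start regions in each library, with the Omni cohort on the left and the ApoE KO cohort on the right. Points are libraries coloured by genotype and shaped by treatment, and bars are cohort means. Tfb1m and Gabpa sit at the top in all 12 libraries, Ppargc1b at the bottom of the means, and Nrf1 and Polrmt spread over a wide range in the ApoE KO cohort.

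Nrf1 (gene 18181, chromosome 6, 30047985 to 30153458) had its start region at 30047197 to 30048883. In the Omni cohort its percentile was 48.0 in untreated WT, 64.8 in untreated KO, 77.4 in WT with oxLDL and 73.5 in KO with oxLDL. ApoE KO values were 43.4 and 55.4 in untreated WT, 19.2 and 14.5 in untreated KO, 70.2 and 39.3 in WT with oxLDL, and 47.9 and 45.4 in KO with oxLDL. The untreated KO libraries of the ApoE KO cohort were thus the 2 lowest of all 12, while in the Omni cohort the lowest was untreated WT. Means were 65.9 ± 13.08 (SD, n = 4) in the Omni cohort and 41.9 ± 18.16 (SD, n = 8) in the ApoE KO cohort.

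Gabpa (gene 14390, chromosome 16, 84834891 to 84863783) ranked near the top in every library. Its region (84834201 to 84836389) lay at 94.2 ± 0.96 (SD, n = 4) in the Omni cohort, from 93.3 to 95.3, and at 98.8 ± 0.70 (SD, n = 8) in the ApoE KO cohort, from 98.0 to 99.5. This region is shared with a second gene: Atp5j, a subunit gene of mitochondrial ATP synthase, is read from the opposite strand, with starts 148 and 501 bp from that of Gabpa. The peak therefore cannot be assigned to either gene.

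Esrra (gene 26379, chromosome 19, 6910977 to 6922048) had a wider spread in the Omni cohort. Its region (6920437 to 6922754) lay at 66.1 in untreated WT, 41.4 in untreated KO, 87.2 in WT with oxLDL and 63.5 in KO with oxLDL. KO was thus below WT, and oxLDL above untreated, in that cohort. In the ApoE KO cohort the percentile was 77.6 and 95.5 in untreated WT, 78.6 and 81.6 in untreated KO, 75.9 and 82.0 in WT with oxLDL, and 84.4 and 78.4 in KO with oxLDL, where all groups overlapped.

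Among the coactivators, Ppargc1b (gene 170826, chromosome 18, 61291445 to 61400756) had the lowest mean of the 8 start regions in both cohorts. Its region (61398464 to 61401111) lay at 29.3 ± 8.51 (SD, n = 4), from 22.9 to 41.7, in the Omni cohort and at 17.3 ± 6.37 (SD, n = 8), from 8.9 to 28.2, in the ApoE KO cohort. Although low in rank, it was wide in the Omni lists, with a median of 2510.5 bp of peak against 1608.5 bp at Nrf1 and 1174.0 bp at Tfb1m.

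Ppargc1a (gene 19017, chromosome 5, 51454249 to 52115853) had no peak within 1 kb of its tabulated start (51567725, minus strand) in any of the 12 lists. The nearest peak lay 13.6 to 15 kb downstream, inside the gene, in 10 libraries. It lay 4.1 kb upstream in the untreated KO library of the Omni cohort and 441.3 kb upstream in the first oxLDL WT library of the ApoE KO cohort. A region 14.5 kb downstream (51551740 to 51553251) was called in 11 of 12 libraries, and so was a region over the gene's upper boundary (52115678 to 52116825), 548.0 kb upstream of the tabulated start. On the minus strand this boundary is the 5′ end of the annotated gene body, where no start is tabulated. The lack of a peak thus applies to the tabulated start only. A region just outside that boundary (52119069 to 52119554) was also called in 11 of 12. All 3 were found in every KO library (6 of 6) and in 5 of 6 WT libraries. The call missing at the upper boundary was that of the first untreated WT library of the ApoE KO cohort (29064 peaks). At the others it was that of the first oxLDL WT library of that cohort (27571 peaks). The KO lists of that cohort, from 33267 to 44524 peaks, were longer than both of these. The second untreated WT list (39303 peaks) lay within that range. A part of list length in these calls was not tested. The share of all regions with such a pattern is not given here.

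Of the machinery genes, Tfb1m (gene 224481, chromosome 17, 3519250 to 3557796) ranked highest. Its region (3557145 to 3558339) lay at 98.6 ± 0.71 (SD, n = 4) in the Omni cohort and at 99.4 ± 0.29 (SD, n = 8) in the ApoE KO cohort, and no library fell below 97.8. Tfb2m (gene 15278, chromosome 1, 179528052 to 179546305) had its region at 179545549 to 179547031. In the Omni cohort it lay at 87.3 in untreated WT, 74.9 in untreated KO, 86.2 in WT with oxLDL and 92.6 in KO with oxLDL. In the ApoE KO cohort the range was 93.4 to 98.4. The start of Cnst on the opposite strand is 253 bp away, so this peak too is shared by a pair of genes.

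Tfam (gene 21780, chromosome 10, 71225468 to 71238328) had its region at 71237430 to 71238654. It lay between 83.5 and 88.4 in the Omni cohort. In the ApoE KO cohort it was 71.1 and 85.6 in untreated WT, 70.2 and 82.1 in untreated KO, 79.7 and 63.7 in WT with oxLDL, and 93.4 and 75.9 in KO with oxLDL. All groups overlapped here.

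Polrmt (gene 216151, chromosome 10, 79736125 to 79746604) had its region at 79745963 to 79747099. It lay at 77.0, 76.7 and 76.7 in untreated WT, untreated KO and oxLDL WT of the Omni cohort and at 67.9 in oxLDL KO. ApoE KO values were 35.1 and 74.0 in untreated WT, 64.2 and 47.8 in untreated KO, 26.6 and 53.2 in WT with oxLDL, and 68.4 and 55.9 in KO with oxLDL. Both oxLDL KO libraries were above both oxLDL WT libraries, while untreated WT replicates spanned the range of the untreated KO ones.

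Ordered by mean in the ApoE KO cohort, the start regions ran Tfb1m, Gabpa, Tfb2m, Esrra, Tfam, Polrmt, Nrf1 and Ppargc1b. The ranges of all 7 pairs of neighbours in that order, pooled over libraries, overlapped. Compared within each library of that cohort, Gabpa always ranked above Tfb2m, Tfb2m above Esrra and Tfam above Polrmt. The other pairs did not keep their order in every library. In the Omni cohort the order was Tfb1m, Gabpa, Tfam, Tfb2m, Polrmt, Nrf1, Esrra and Ppargc1b, and 5 of 7 pairs of neighbours overlapped. Tfb1m stood clear of Gabpa there, and Gabpa of Tfam. Esrra also ranked above Ppargc1b within each Omni library, though their pooled ranges overlapped. The 2 cohorts differ in protocol and caller, and the ApoE status and storage of the Omni cells are not given, so these cannot be told apart in a difference in level between cohorts.

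The authors' fold enrichment, deposited for the ApoE KO cohort only, gave the same top and bottom. Medians over its 8 libraries were 12.08 for Tfb1m, 10.31 for Gabpa, 9.83 for Tfb2m, 6.52 for Tfam, 5.46 for Esrra, 4.73 for Nrf1, 4.51 for Polrmt and 3.12 for Ppargc1b.

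The position of the summit, the base at which the caller placed the highest signal, is also given for the ApoE KO cohort. At Gabpa it fell at base -137 or -136 in all 8 libraries, a range of 1 bp, between the starts of Gabpa and Atp5j. Over the 7966 different start regions called in all 12 libraries, the median range was 141.0 bp, and 0.276% had a range of 1 bp or less. The bases around it, which hold no match to the 7 motifs, are shown to place it beside the ETS match given above.
Gabpa summit: accggacgcctctaggtgagacagaagcca
This stretch is chr16:84834973-84835002 and covers bases -151 to -122, upstream of that match.

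At Tfb1m the summit fell at base -109 in 5 of 8 libraries and between -149 and -50 in all, within the stretch printed above. At Tfam it fell between -68 and -23 with a median of -27, close to the ETS match. At Polrmt it fell between -65 and -20, which holds the ETS match of the printed stretch and ends upstream of the overlapping NRF1 matches. At Nrf1 the summit lay downstream of the tabulated start in all 8 libraries, by 59 to 107 bp. Ranges for Nrf1, Polrmt and Tfam were 48, 45 and 45 bp, and 7.87%, 6.78% and 6.78% of start regions had a smaller one. The summit of Tfb2m fell between -73 and 0, and that of Esrra between -286 and -99, a range of 187 bp that 60.7% of start regions stayed below.

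**Figure D2:**
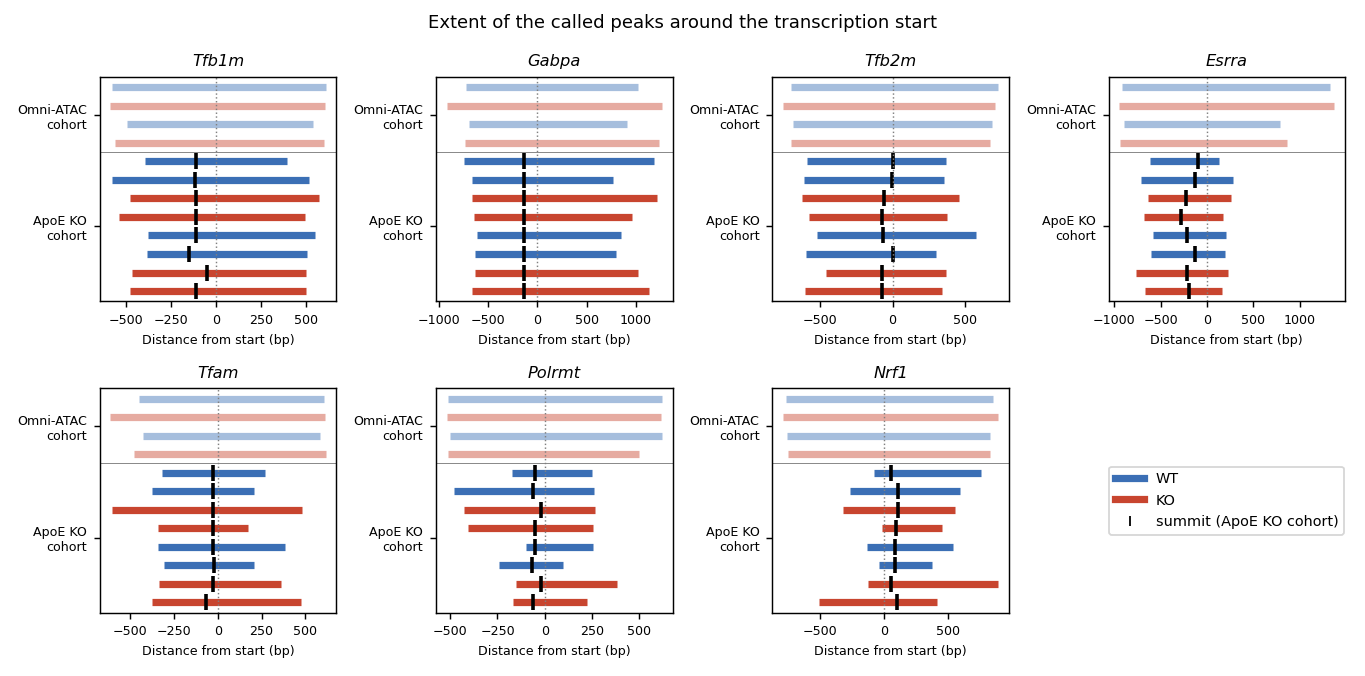
Extent of the called peaks (first to last base) in the start region of 7 genes, by library, against the distance from the tabulated start in bp (horizontal axis, negative upstream). Bars are peaks coloured by genotype, with the 4 Omni libraries (pale) above the 8 ApoE KO libraries, and black marks are summits. At Gabpa the 8 summits stand in 1 column, while at Esrra they are spread upstream of the start.

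Away from the starts, calls were far less shared. All 8 start regions of the members were called in 12 of 12 libraries, against 1 of 58 other regions inside the members, 3 of 6 over the starts of other genes, 1 of 16 inside other genes and 0 of 25 between genes. A start region was the one within 1 kb called in the most libraries, so this contrast follows in part from the choice. Starts of other genes were counted only where tabulated, so a region classed as inside a gene may lie over an untabulated start. Regions 0.8 kb from the Ppargc1b boundary (5 libraries) and the Tfb1m start (1 library) were counted as between genes. The matching shares over all genes are not given here. In all, 13 of 113 regions (11.5%) were called in all 12 libraries, near the 12% of all regions. A further 32 (28.3%) were called in 1 library only, 26 of them in the untreated KO library of the Omni cohort. The background shares were 25.5% for 1 library and 20.2% for that library alone, which has the longest list. Calls in all 4 Omni and no ApoE KO libraries made up 15 regions (13.3%, background 15.7%). The reverse pattern did not occur among the 113 and was rare among all regions (56 of 144562).

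Windows differed in size and in how many regions they held. Ppargc1b had 27 regions, Nrf1 23, Ppargc1a 22, Esrra 10, Tfb2m 10, Polrmt 7, Tfam 5, Tfb1m 5 and Gabpa 4. Per 100 kb of window, the most were at Esrra (19.58) and the fewest at Ppargc1a (3.14), whose gene is 661.6 kb long.

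**Figure D3:**
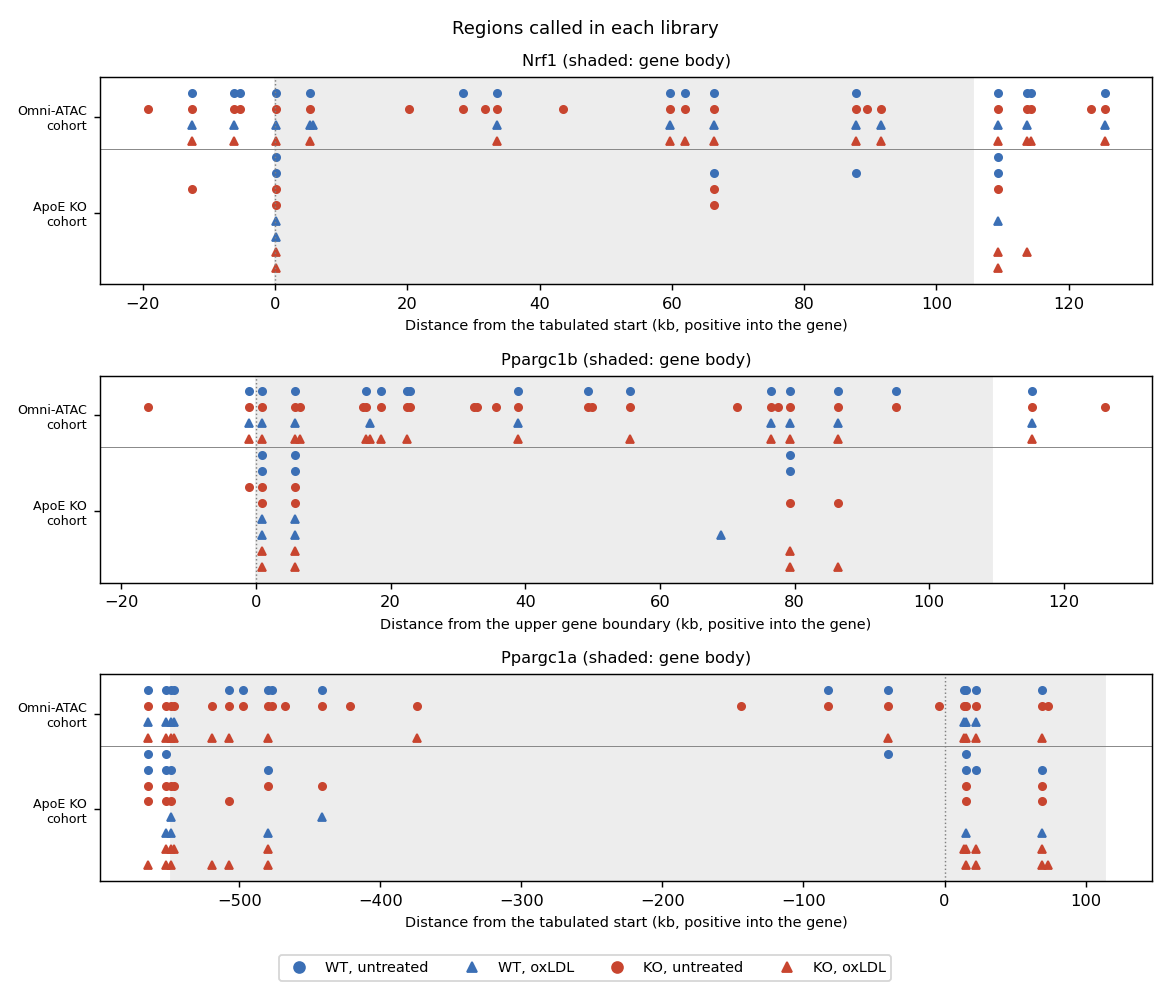
Regions called in each library around Nrf1, Ppargc1b and Ppargc1a, against distance in kb from the tabulated start (the upper gene boundary for Ppargc1b), with positive values into the gene. Each row is a library, with the 4 Omni libraries above the line and the 8 ApoE KO libraries below it, and shading marks the gene body. Nrf1 and Ppargc1b have a column of points near 0 in all 12 libraries, and Ppargc1a has none there.

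For each window, the region outside any start with the highest mean percentile of its list was identified, with the mean taken over the libraries that called it. Median percentiles of the whole list were lower in ApoE KO than in Omni libraries at 6 of the 7 such regions called in both cohorts, so the choice was repeated over all 12 libraries with 0 where a region was not called, an alternative added after seeing the data. Both choices gave the same region in 6 of 9 windows. Inside Nrf1, the mean over calls chose a region 59.3 kb into the gene (30107328 to 30107967), which was called in 4 of 4 Omni and 0 of 8 ApoE KO libraries. The mean over all 12 chose a region past the gene's end, 108.7 kb from the start (30156713 to 30157913), which was called in 4 Omni and 6 ApoE KO libraries, 5 KO and 5 WT. A region 66.0 kb into the gene (30113956 to 30114739) was called in 4 Omni and 3 ApoE KO libraries, and these 3 were all untreated. It ranked above the region at 59.3 kb in each Omni library, at 95.3, 95.3, 93.3 and 87.8 against 80.8, 93.3, 70.8 and 66.5 in untreated WT, untreated KO, WT with oxLDL and KO with oxLDL. RefSeq lists a second start of Nrf1 (30076321), and the region over it (30076246 to 30076526) was called in both untreated Omni libraries and in no other. These last 3 regions were named after their values were seen. The untreated Omni lists were longer (108934 peaks in WT and 141441 in KO) than those with oxLDL (82177 and 95901). The shares of all regions called only in untreated libraries of a cohort are not given here. In Ppargc1b the corresponding region (61394668 to 61395291), 5.5 kb inside the upper boundary, was called in all 12. Its score percentile ran from 30.4 to 36.6 in the Omni cohort and from 18.0 to 53.9 in the ApoE KO cohort. This region had a higher median than the one over the boundary in both cohorts, 33.0 against 26.4 and 41.3 against 18.0.

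In 6 of the other 7 windows the regions chosen by the mean over calls lay inside neighbouring genes or between genes. That of Tfb2m (179516858 to 179518468) lay inside Smyd3 and was called in all 12. That of Gabpa (84813932 to 84815051) lay inside Jam2 and was called in 10. That of Tfb1m (3509819 to 3510263) lay inside Tiam2 and was called in 8. The one near Polrmt (79726075 to 79726519) lay inside Hcn2 and was called in 5. Between genes, that of Esrra (6890936 to 6891565) was called in 5 and that of Ppargc1a (52132156 to 52133252) in 9. Over all 12 libraries the choice for Ppargc1a was the region at its upper boundary given above. That region counts as outside any start only because no start is tabulated at the 5′ end of the gene body. Starts of neighbouring genes were likewise counted only where tabulated. Whether the region inside Smyd3 lies over a start of that gene that is not tabulated was not checked. The one of Tfam (71225949 to 71226234) lay inside that gene and was called in 2, both untreated Omni libraries, which have the longest lists. The share of all regions with that pattern is not given here. A region between genes (71218166 to 71218584), called in 4 Omni and 2 ApoE KO libraries, was chosen for Tfam over all 12.

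Loss of Baf60a was compared first by presence and absence. No region in the 9 windows was called in at least 5 of 6 KO and at most 1 of 6 WT libraries, or the reverse. Over all regions 0.038% met the first condition and 0.00138% the second. The same count for oxLDL was 0 in both directions, with 0.0% of all regions called in at least 5 of 6 oxLDL and at most 1 of 6 untreated libraries and 0.0401% in the reverse.

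Score rank at the start regions was then compared between KO and WT over both cohorts, with cohort in the model (limma, Benjamini-Hochberg adjusted over 17343 regions). No member passed an adjusted p of 0.05, and neither did any of the 13 regions of the windows that were called in all 12 libraries, with 0.0404% of all regions called. Of the 8 start regions, 3 were higher in KO and 5 lower, with a median difference of -0.52 points against -0.53 over all regions. The difference at Nrf1 was -11.4 ± 7.66 points (estimate ± SE, limma adjusted p = 0.494), with KO below WT when untreated in the ApoE KO cohort (mean difference -32.54) and above it in the Omni cohort (16.87). In the ApoE KO cohort, both WT libraries without treatment and the first oxLDL KO library have a mark (L001) in their deposited names that no other library has. Without these 3 libraries the genotype difference at Nrf1 was -0.66 points. At Esrra it was -9.4 ± 5.17 (limma adjusted p = 0.4), and KO minus WT in the Omni cohort was -24.74 points when untreated and -23.69 with oxLDL. With the ApoE KO cohort alone the Esrra estimate was -1.99. Polrmt (6.37 ± 7.40) and Tfam (4.73 ± 4.01) had positive differences, with limma adjusted p = 0.716 and 0.599. The Polrmt estimate was 11.82 with the ApoE KO cohort alone and 3.85 without the 3 L001 libraries, and KO minus WT in the Omni cohort was -0.28 when untreated and -8.79 with oxLDL. Gabpa (-0.91 ± 1.37), Tfb1m (-0.12 ± 1.24), Tfb2m (-1.36 ± 2.13) and Ppargc1b (1.29 ± 5.37) had differences smaller than their standard errors.

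Within the ApoE KO cohort, 2 libraries per group can be read for overlap only. Untreated KO libraries lay below both untreated WT libraries at 2 of 8 start regions, Nrf1 and Tfb2m, and above at 0, against 22.6% and 23.4% of all regions. With oxLDL, KO lay above WT at 1 (Polrmt) and below at 1 (Tfb1m), against 20% and 21.5%. These shares are near or below the background.

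Starts of neighbouring genes within the windows showed larger differences than the members' own. The region over the Rnf126 start near Polrmt (79766358 to 79768047) differed by -16.15 ± 5.48 points between KO and WT, that over the Prdx5 and Trmt112 starts near Esrra (6908763 to 6910842) by -19.17 ± 6.81, and that over the Bad and Gpr137 starts (6941021 to 6942731) by -14.06 ± 6.49. Unadjusted p was under 0.05 for these 3 of 13 regions, as for 15.2% of all regions, and their limma adjusted p were 0.181, 0.199 and 0.308. They were chosen for naming after their values were seen. Prdx5 encodes a peroxiredoxin that is found in mitochondria.

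Peak width, the base pairs of peak in a region relative to the median of the library, differed by -0.22 to 0.09 on the log2 scale between KO and WT at the 8 starts. None passed (limma adjusted p from 0.708 to 0.995, 0.0% of all regions called). The lowest value was that of Tfb2m, -0.22 ± 0.09 (limma adjusted p = 0.708), whose unadjusted p was under 0.05 as for 6.85% of all regions.

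Peak number in the windows was compared in lists of equal length as log2(peaks + 0.5), for 15312 genes. Ppargc1a had the largest difference of the 9. In the Omni cohort its window held 12 and 8 peaks in WT (untreated, oxLDL) and 17 and 14 in KO. In the ApoE KO cohort it held 4, 1, 1 and 5 in WT and 3, 4, 4 and 5 in KO, and the genotypes overlapped there. The estimate was 0.68 ± 0.38 (limma adjusted p = 0.729, 0.0% of genes called). Unadjusted p was under 0.05 at 0 of 9 genes, against 6.8% of all genes. The other 8 genes lay between -0.24 (Nrf1) and 0.16 (Polrmt), against a median of -0.02 over all genes.

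**Figure D4:**
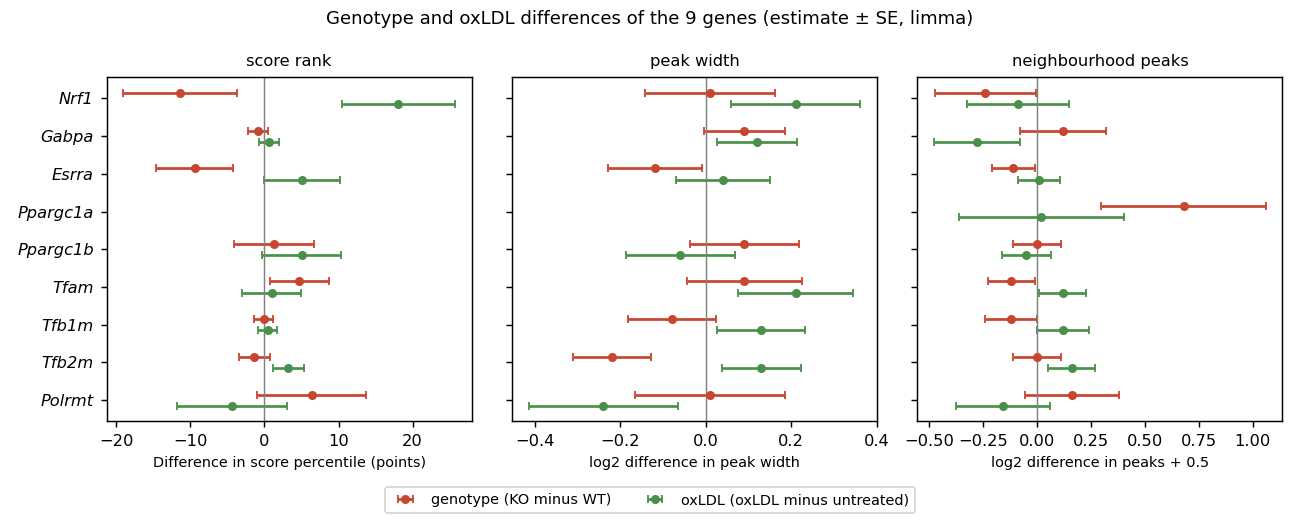
Differences between KO and WT (red) and between oxLDL and untreated libraries (green) for the 9 genes, as limma estimates with SE bars. Panels show score percentile of the start region in points, log2 peak width of the start region and log2(peaks + 0.5) of the window. Ppargc1a has no region over its tabulated start and appears only in the last panel. The bars of Nrf1 in the first panel are the farthest from 0, and no value passed the adjusted threshold.

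For oxLDL, 7 of 8 start regions had a higher score rank than untreated libraries, with a median difference of 2.1 points against 0.45 over all regions. None passed (limma adjusted p from 0.478 to 0.965, 0.00577% of all regions called). Nrf1 had the largest difference, 18.07 ± 7.66 points (limma adjusted p = 0.478), and its unadjusted p of 0.0281 was under 0.05 as for 9.37% of all regions. Without the 3 L001 libraries its difference was 28.81 points. By group means, oxLDL was above untreated at Nrf1 in each of the 4 strata: by 29.46 and 8.67 points in WT and KO of the Omni cohort, and by 5.37 and 29.78 in WT and KO of the ApoE KO cohort. In WT of the ApoE KO cohort the libraries overlapped (70.2 and 39.3 against 43.4 and 55.4). In KO of that cohort oxLDL lay above untreated without overlap at 3 of 8 starts, Nrf1, Gabpa and Tfb2m, against 20.3% of all regions, and below at 0, against 20.8%. In WT it lay above without overlap at 1 of 8, Tfb1m, against 18.7%, and below at 0, against 17.8%.

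The other starts had smaller oxLDL differences. Differences were 5.09 ± 5.17 points at Esrra, 5.01 ± 5.37 at Ppargc1b, 3.23 ± 2.13 at Tfb2m, 0.98 ± 4.01 at Tfam, 0.66 ± 1.37 at Gabpa, 0.43 ± 1.24 at Tfb1m and -4.35 ± 7.40 at Polrmt. Esrra was above untreated in both genotypes of the Omni cohort (21.07 and 22.13 points) and the ApoE KO differences were -7.65 in WT and 1.33 in KO. Peak width differed by -0.24 (Polrmt) to 0.21 (Nrf1 and Tfam), and peak number by -0.28 (Gabpa) to 0.16 (Tfb2m), with none passing and 0.0% called among all regions or genes. Unadjusted p for width was under 0.05 at 0 of 8 starts, against 7.78% of all regions, and for peak number at 0 of 9 genes, against 5.53%.

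Whether oxLDL acted differently in KO and WT was tested as an interaction, and no gene passed in any of the 3 readouts (0.0% called in each). For score rank the estimates ran from -4.76 points at Ppargc1b to 11.05 at Tfam, where it was -0.94 with the L001 mark as a term, and unadjusted p was under 0.05 at 0 of 8 starts, against 4.26% of all regions. For peak number it was so at 0 of 9 genes, against 3.36% of all genes. The width of the Nrf1 start peak had an interaction of 0.79 ± 0.30 on the log2 scale (limma adjusted p = 1.0), and its unadjusted p was under 0.05 as for 3.84% of all regions. Without the 3 L001 libraries it was 0.36, and with the ApoE KO cohort alone 1.19. In base pairs, this region held 705 and 861 in untreated WT, 876 and 470 in untreated KO, 675 and 419 in WT with oxLDL, and 1022 and 926 in KO with oxLDL in the ApoE KO cohort. In the Omni cohort it held 1630, 1684, 1587 and 1582 in that order of groups. The range in the shorter ApoE KO lists was thus far wider than in the Omni lists.

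A set of 3 lists of related genes was set beside the 9, chosen for their role. Partners and upstream regulators (22 genes, such as Creb1, Yy1, Myc, Sirt1 and Nrip1) had 15 start regions called in all 12 libraries. Genes that copy and maintain mitochondrial DNA and RNA (20 genes, such as Polg, Twnk and Lonp1) had 14, and classical targets of NRF1 and GABP (17 genes, such as Cycs, Cox4i1 and Tomm20) had 16. As shares of each list these are 68.2%, 70.0% and 94.1%, against 43.6% of all genes. No gene of the lists passed in either direction for genotype or oxLDL in score rank, width or peak number, by limma with adjustment over all regions or genes.

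By sign, score rank was lower in KO at 13 of 15 partners (median -2.73 points), 11 of 14 mitochondrial DNA genes (-3.62) and 14 of 16 targets (-6.61), against a median of -0.53 over all regions, of which 47.0% were above 0. For oxLDL it was higher at 11 of 15 partners (median 2.69 points), 7 of 14 mitochondrial DNA genes (0.61) and 9 of 16 targets (0.60), against a median of 0.45 over all regions, 53% of them above 0. Between genotypes the smallest p values were those of Polg, the mitochondrial DNA polymerase (-7.42 ± 2.24, limma adjusted p = 0.141), and Primpol, a primase-polymerase (-11.31 ± 3.54, 0.153). Upward, they were those of Cox7c, a cytochrome c oxidase subunit (4.85 ± 2.12, 0.282), and Elac2, an RNA-processing nuclease (1.60 ± 1.82, 0.71). Among the members, 5 of 8 were below 0, with a median of -0.52. That the lists differ from the members or from other genes was not tested.

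With oxLDL, Nrip1, a corepressor that opposes PGC-1 coactivators, had 12.51 ± 4.11 points (limma adjusted p = 0.389) and Cycs, cytochrome c, 5.38 ± 2.19 (0.468). Downward were Mrps12, a mitochondrial ribosomal protein (-12.62 ± 5.65, 0.503), and Clpp, a mitochondrial protease (-7.14 ± 6.10, 0.732). In peak width the smallest p values between genotypes belonged to Lonp1 (0.45), Myc (0.30), Nfe2l1 (-0.19) and Gabpb2 (-0.44), and with oxLDL to Sirt3 (0.22), Nrip1 (0.15), Ndufa2 (-0.47) and Rnaseh1 (-0.24). In peak number they belonged to Ssbp1 (0.25), Max (0.16), Ppard (-0.51) and Kat2a (-0.16) between genotypes, and with oxLDL to Max (0.38), Mef2d (0.15), Ssbp1 (-0.25) and Sirt3 (-0.26), with limma adjusted p of at least 0.632 for all width and peak number values given here.

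Genes whose start regions lay closest in level to those of the members over the 12 libraries were sought among 9004 genes. The measure was the mean absolute difference in score percentile, which does not test whether starts change together between libraries. For Nrf1 the closest genes were Ppp2r5b (8.42 points), Sgf29 (9.03) and Klhdc2 (9.16). Differences were smaller for Mettl4 with Tfb1m (0.36), Dad1 with Gabpa (0.98, in a region it shares with Abhd4) and Crem with Tfb2m (1.54). Tfb1m and Gabpa ranked near the top of the bounded percentile scale in every library, where other high-ranked starts can differ from them by little. The same applies in part to Tfb2m, which ranked high in the ApoE KO cohort. These small differences therefore do not show a closer match than at the other members. Slc38a9 was nearest to Tfam (3.97), Gm2a to Esrra (4.23), Pgam5 to Ppargc1b (4.46) and Ost4 to Polrmt (6.27).

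As facts of the whole data set, lists held 82177 to 141441 peaks in the Omni cohort and 24397 to 44524 in the ApoE KO cohort, and KO lists were longer than WT lists of the same treatment in the Omni cohort. In the ApoE KO cohort this held with oxLDL (35589 and 33934 in KO, 27571 and 24397 in WT). Untreated lists overlapped there (44524 and 33267 in KO, 29064 and 39303 in WT). Starts of macrophage markers were called for 10 of 10 genes in each Omni library and for 7 to 10 in ApoE KO libraries. Those of other blood lineages were called for 2 to 4 of 6 B cell, 0 to 1 of 6 T and NK cell, 2 to 3 of 6 neutrophil, 2 to 4 of 5 dendritic, 2 of 5 mast cell and 4 of 5 erythroid markers in the Omni libraries, and for 0 to 1, 0 to 1, 1 to 2, 0 to 1, 0 to 1 and 2 to 3 in ApoE KO libraries. No library had a call over the start of Cd79a, Cd79b, Cd3e, Cd8a, Lck, Ncr1, Elane, Mpo, Ltf, Ccr7, Cpa3, Mcpt8, Ms4a2 or Hbb-bs. The starts of S100a8 (neutrophil) and of Klf1 and Tfrc (erythroid) were called in all 12 libraries, as were 6 of 10 macrophage starts. The part of other cells in the results was not tested. The targeted gene, Smarcd1, had a region over its start (chromosome 15, 99701894 to 99702982) in 12 of 12 libraries. The deleted part is not given in the labels, so this does not check the genotype. Further results without the 3 L001 libraries are given under the processing.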

How the data were processed

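The data are 1 peak list per library on genome build mm10, called with MACS3 (Omni cohort) or MACS2 (ApoE KO cohort) after Bowtie2 2.3.4.1, SAMtools 1.2, Picard, FastQC, Trim Galore, cutadapt and bedtools 2.28.0, per the submitters' processing notes. For settings, any transposase shift and any removal of duplicates the answer is the same: not given in the sources used here. Each deposited peak has the authors' score. The ApoE KO lists also hold a fold enrichment (a ratio), and a −log10 p and −log10 q, as deposited by the authors. In these lists nearly every score equalled that −log10 q times 10 without its decimals. The lists hold no reads, so depth is unknown, no interval that needs it is given, and deeper libraries may yield longer lists. Only the 19 autosomes, which both cohorts share, were used.

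Peaks were merged where they overlapped by 1 bp or more. Score rank is the percentile of a region's highest score among regions called in all 12 libraries. Width is log2 base pairs of peak minus the library median. Peak number is log2(peaks + 0.5) within a gene and 20 kb on each side, for genes that averaged 1 peak or more, in lists cut to 80394 (Omni) or 24397 (ApoE KO) peaks of highest score. A fold change on this scale understates that of low numbers. Each was fitted over all features with limma 3.58.1 in R 4.3.3 (eBayes with a trend, group means plus cohort, Benjamini-Hochberg, adjusted p under 0.05), and the scripts were tested on simulated data. Other steps used Python 3.11.15 (pandas 2.3.3, numpy 2.4.6, matplotlib 3.10.9). Gene and start positions and sequences are RefSeq's (GRCm38.p6). Alternatives covered thresholds, overlap, scale, flank, pseudocount, filters, list length and left-out libraries.

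All 9 genes are named in every fit, with the region over the start and the strongest region outside starts in each window. From the related lists, genes past the threshold were to be named, or else the 2 with the smallest p per direction. The members and lists were chosen with earlier results of these data known. Replicate numbers do not pair the libraries: correlations of replicate differences between groups ran from -0.102 to 0.0584 for score rank.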

Additional observations from a re-analysis of the deposited data

How the results depend on the processing

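No value of the 9 genes passed the adjusted threshold under any alternative run. For genotype, oxLDL and interaction, 75 values were refitted 1446 times in all (limma). Of these fits 127 reversed the direction, 70 of them with 1 library left out, and the lowest adjusted p was 0.227. The cause of each change below was not tested. Counts of regions called between genotypes by score rank (7 in the main result) were 154 with normal scores in place of percentiles, 16 with a score of at least 50, 3 with the replicate block, and 0 with the ApoE KO cohort alone, with fold enrichment in place of the score, with peaks covering 50% of the region, or without the 3 L001 libraries. They ran from 1 to 146 with 1 library left out, the highest without the oxLDL KO library of the Omni cohort. For oxLDL (1 in the main result) they were 11 with normal scores and 0 with L001 as a term, with the ApoE KO cohort alone, with fold enrichment or without the L001 libraries, and ran from 0 to 3 with 1 library left out. By width, 1 region was called between genotypes with the ApoE KO cohort alone and 0 to 1 with 1 library left out. By peak number (0 in the main result), genotype, oxLDL and interaction gave 498, 450 and 438 genes with the ApoE KO cohort alone, 217, 221 and 196 without the L001 libraries, and 1, 2 and 1 with a 5 kb flank. oxLDL gave 1 gene with no filter and 1 with a pseudocount of 1. With 1 library left out these counts ran from 0 to 116, 0 to 95 and 0 to 90, the highest again without the oxLDL KO library of the Omni cohort. None of the 9 genes was among the calls for genotype, oxLDL or interaction.

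The replicate block left every other count of calls at 0 or 1, as in the main result. Replicate numbers carry no label of a shared animal or day, and the replicate 1 minus 2 differences of pairs of groups correlated between -0.138 and 0.0815 over the 3 readouts.

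In score rank, oxLDL at Esrra turned to -3.16 with the ApoE KO cohort alone and -4.32 by fold enrichment, and genotype at Ppargc1b to -1.96 and -1.27 under the same choices. Genotype at Tfb1m was 0.22 without the L001 libraries. Width without centring gave -0.09 (Gabpa), -0.17 (Esrra), -0.08 (Tfb1m) and -0.08 (Tfb2m) for oxLDL, and 0.08 (Esrra) and 0.12 (Tfb1m) for genotype. A score of at least 50 gave -0.01 for oxLDL at Esrra, and peaks covering 50% of the region gave 0.01 for genotype at Tfb1m. Peak number in full lists gave 0.21 (Nrf1), 0.08 (Esrra), 0.25 (Tfam) and 0.44 (Tfb1m) for genotype, and -0.08 (Esrra), -0.42 (Ppargc1a), -0.28 (Tfam) and -0.19 (Tfb1m) for oxLDL. Without the L001 libraries genotype was 0.08 at Nrf1 and 0.03 at Esrra, and oxLDL 0.24 at Nrf1 and -0.14 at Ppargc1a. A 5 kb flank gave -0.25 for genotype at Gabpa. A 50 kb flank gave 0.04 (Gabpa), -0.01 (Esrra), -0.09 (Tfb1m) and 0.05 (Polrmt) for oxLDL, and -0.02 for genotype at Polrmt. The ApoE KO cohort alone gave -0.12 for oxLDL at Esrra.

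The interaction in score rank turned to -8.68 (Nrf1), -0.42 (Gabpa), -0.94 (Tfam) and -0.28 (Polrmt) with L001 as a term, to -15.56 (Nrf1) and -0.01 (Gabpa) without the L001 libraries, and to 0.1 by fold enrichment at Tfb1m. In width it turned to -0.03 (Gabpa and Tfb1m), -0.12 (Esrra), 0.02 (Tfam) and -0.42 (Polrmt) with L001 as a term, to -0.02 (Gabpa), -0.05 (Esrra), 0.06 (Tfam) and -0.36 (Polrmt) without those libraries, and to 0.01 (Tfam) and -0.03 (Tfb1m) with the ApoE KO cohort alone. In peak number it was 0.08 (Gabpa and Esrra), -0.1 (Ppargc1a) and 0.04 (Polrmt) with a 50 kb flank, 0.27 (Esrra) and 0.24 (Ppargc1b) in full lists and 0.31 (Gabpa) without the L001 libraries.

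With 1 library left out, these values changed sign within the ranges given. In score rank they were -0.57 to 8.17 (Esrra, oxLDL), -2.18 to 3.99 (Ppargc1b, genotype), -1.69 to 3.48 (Tfam, oxLDL), -0.28 to 0.03 (Tfb1m, genotype), -2.85 to 0.69 (Tfb2m, genotype) and -9.63 to 0.75 (Polrmt, oxLDL). In width they were -0.09 to 0.11 (Nrf1 and Polrmt, genotype), -0.03 to 0.11 (Esrra, oxLDL) and -0.15 to 0.05 (Ppargc1b, oxLDL). In peak number they were -0.21 to 0.04 (Nrf1, oxLDL), -0.01 to 0.23 (Gabpa, genotype), -0.05 to 0.09 (Esrra, oxLDL), -0.26 to 0.24 (Ppargc1a, oxLDL), -0.06 to 0.31 (Polrmt, genotype) and -0.31 to 0.06 (Polrmt, oxLDL). For the interaction, score rank ran from -0.36 to 0.54 (Gabpa), -3.22 to 17.66 (Esrra) and -11.7 to 0.64 (Ppargc1b), width from -0.07 to 0.2 (Esrra), -0.32 to 0.07 (Ppargc1b), -0.21 to 0.15 (Tfam), -0.06 to 0.15 (Tfb1m) and -0.12 to 0.28 (Polrmt), and peak number from -0.47 to 0.01 (Gabpa), -0.23 to 0.77 (Ppargc1a), -0.21 to 0.01 (Ppargc1b) and -0.61 to 0.11 (Polrmt).

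The call rule gave 0 of the 113 regions in the main result and under the other thresholds, overlaps and list lengths. With 1 library left out, and all but 1 of the larger set required, it gave 0 to 1 for genotype and 0 to 1 for oxLDL. A region near Polrmt (79716484 to 79717518) passed as KO without the untreated or the oxLDL WT library of the Omni cohort. Over all regions, 1152 of 142995 and 1120 of 144217 passed as KO in these settings. A region inside Ppargc1a (52075046 to 52075457) passed as KO without the first untreated or the first oxLDL KO library of the ApoE KO cohort. There, 104 of 143819 and 168 of 143817 of all regions passed as KO. The region inside Nrf1 at 30113956 passed as untreated without the oxLDL WT or the oxLDL KO library of the Omni cohort. So did 1196 of 144217 and 1215 of 143297 of all regions.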
